A study of Mus musculus with 12 samples.

Results

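Inhibitory receptors and phosphatases of B cells were followed as 10 genes of the 41444 in the deposited expression table. The genes were taken by name and are the receptors *Cd22*, *Fcgr2b*, *Cd72*, *Pecam1*, *Lair1* and *Cd300a*, the phosphatases *Ptpn6*, *Inpp5d* and *Ptpn22*, and *Il2ra*, the α-chain of the interleukin-2 receptor. RNA-seq was performed on B-ALL cells that were made from bone marrow pre-B cells of Ctnnb1 fl/fl mice by retroviral transformation with BCR-ABL1. Both groups analysed here carried the ERT2 vector, which holds no Cre and leaves β-catenin intact, and both received the tamoxifen metabolite 4-OHT for 2 days at 1 μM. The control group received nothing else that the labels name, and the treated group also received the GSK3β inhibitor LY2090314 at 40 nM for 1 day by the labels, whereas the study's legend gives a shorter time. Of 12 sample columns, 3 were matched by name to control cells (columns 1, 2 and 3) and 3 to treated cells (columns 14A, 14B and 15). The other 6 columns, which are named for Cre, could not be assigned to 1 group each and are not analysed here. Columns 14A and 14B share the number 14, and whether they come from the same culture is not stated. The legend counts mice as replicates, but no label ties a sample to an animal, so p-values measure the spread between these samples only.

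Signals from the B cell receptor are held in check by receptors whose cytoplasmic tails carry immunoreceptor tyrosine-based inhibitory motifs (ITIMs). When kinases such as Lyn phosphorylate an ITIM, it recruits the tyrosine phosphatase SHP-1, encoded by *Ptpn6*, or the inositol phosphatase SHIP1, encoded by *Inpp5d*, and these oppose tyrosine kinase and PI3-kinase signalling. *Il2ra* encodes CD25, which is used as a surface marker of pre-B cells and, unlike the other receptors listed, is a cytokine receptor chain without an ITIM.

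With LY2090314 the receptors differed in the direction and size of their change. *Cd22* was 2.15-fold lower in treated than in control cells, whereas *Fcgr2b* rose 1.90-fold, *Pecam1* 2.30-fold and *Il2ra* 6.75-fold on the linear scale. The receptors *Cd72* and *Lair1* had smaller log2 differences, of 0.23 and −0.35. Those of the phosphatases *Ptpn6*, *Inpp5d* and *Ptpn22* were likewise 0.39 or less in size. The unit is the regularized log2 (rlog) value. It corrects the counts for how deeply a library was sequenced and draws genes with few reads towards their own mean, so differences of low-expressed genes are understated. The rlog scale is not corrected for transcript length, so levels are compared between samples and never between genes. Genes with a mean of at least 3 over the 6 samples were tested with limma, which left 11536 genes and kept 9 of the 10 members. *Cd300a* did not reach the limit. All 9 tested members had an adjusted p under 0.05, with 6 higher and 3 lower, in a comparison in which 50.1% of all genes tested passed, 24.8% higher and 25.3% lower. *Il2ra*, *Pecam1* and *Cd22*, 3 of the 9, also had a log2 difference of at least 1 in size, as did 6.01% of all genes tested. The median log2 difference of the 9 was 0.23 and its median size 0.39, against 0.012 and 0.24 over all genes tested. The treated and control values did not overlap for any of the 9, as for 58.6% of all genes tested. The exact permutation test cannot give less than p = 0.10 with 3 samples against 3, and it gave this value for each of the 9. In bulk RNA, fewer cells that express a gene and less RNA per cell cannot be told apart.

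**Figure D1:**
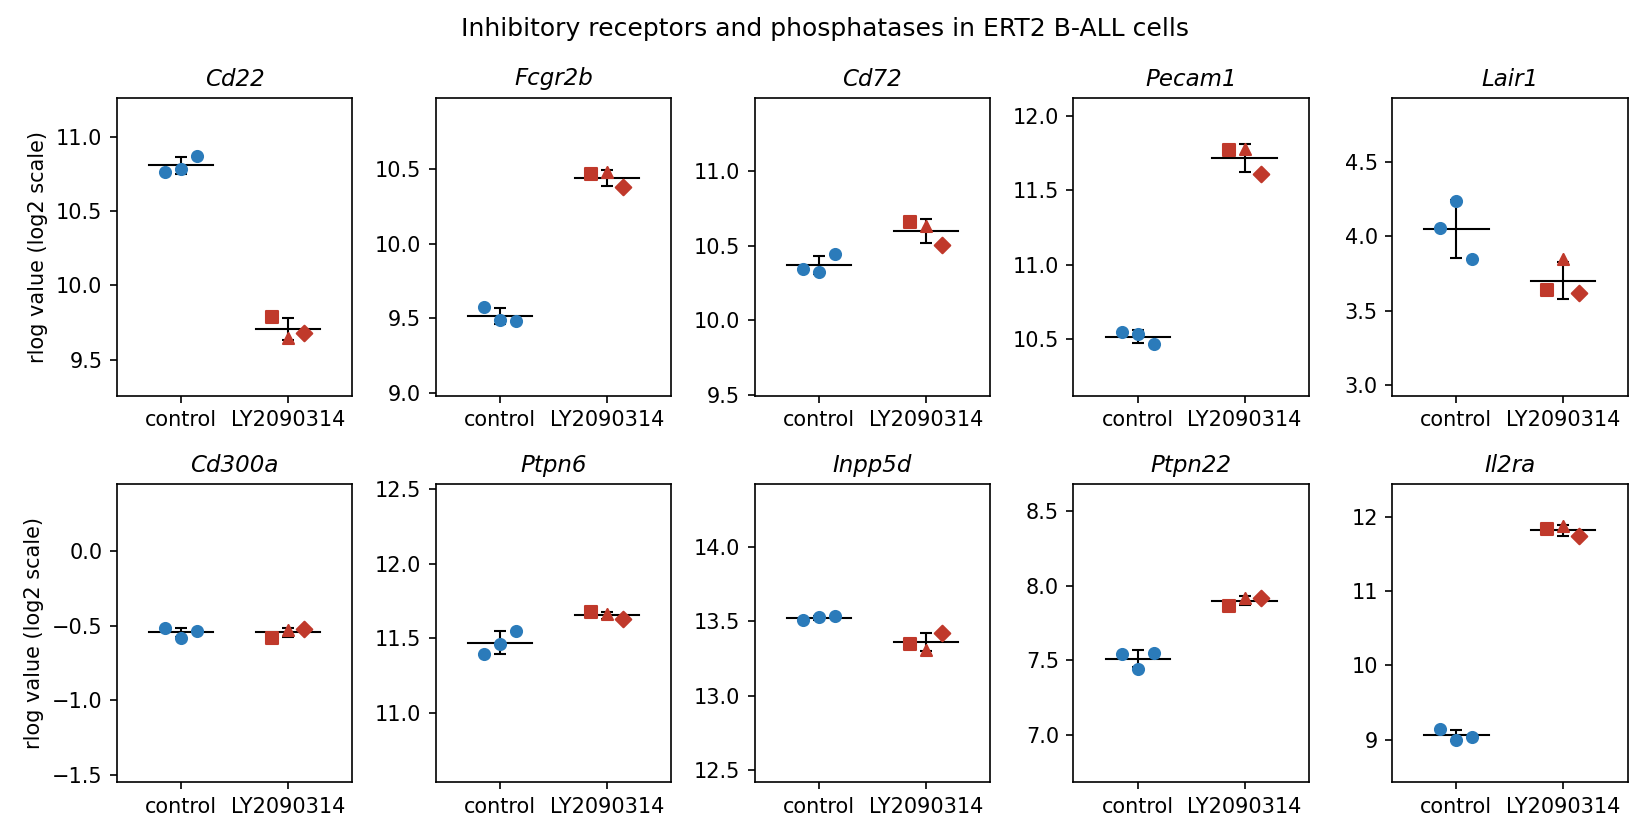
The rlog value (log2 scale) of each of the 10 members in control cells (blue circles, columns 1, 2 and 3 from left to right) and cells treated with LY2090314 (red: square 14A, triangle 14B, diamond 15), with the mean and SD of each group of 3 in black. Every panel spans 2 log2 units except that of *Il2ra*, which spans 4, and only the panel of *Cd300a* shows overlapping groups.

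The promoter sequences of the members were read from RefSeq (GRCm38.p6), which gave 10 windows of 250 bases before a transcription start for 9 of the 10 members and none for *Pecam1*. Both strands were searched for the core letters of 4 families of factors. TGGGAA, a core bound by Ikaros factors, was found in windows of 6 of the 9 members, against 21.6% of all 32851 windows of that length. These shares differ in unit, since members are counted once and *Ptpn22* has windows at a first and a second start, both with a match. The 6 include *Cd22*, *Lair1* and *Inpp5d*, which were lower, *Ptpn6* and *Ptpn22*, which were higher, and *Cd300a*. The TCF/LEF core CTTTGA (13.8% of all windows) and the E-box CACGTG (6.02%) were found in none of the 9. The STAT letters TTCNNNGAA (7.02%) were found in 1 window, that of the second start of *Ptpn22*, where they overlap the Ikaros core. A match of letters is not a bound site. The stretch around each Ikaros core is given for comparison, 5′ to 3′ on the strand of the gene, with matched letters in capitals, which read TTCCCA where the core lies on the other strand.
*Cd22*, chr7:30879156-30879185, minus strand: ctgtgcaaggtaTGGGAAaccttgggtggg
*Lair1*, chr7:4063387-4063416, minus strand: tgctttctacagTGGGAActgatatgtaca
*Inpp5d*, chr1:87620237-87620266, plus strand: gtgctggctgggTGGGAAggtagatgatgc
*Ptpn6*, chr6:124738800-124738829, minus strand: tggctcctccccTTCCCAgggaagtaggcc
*Ptpn22*, first start, chr3:103859630-103859659, plus strand: cctccccggtgcTTCCCAtcctgtgtagag
*Ptpn22*, second start, chr3:103860036-103860065, plus strand, with the STAT letters also in capitals: ctgcctttcTTCTGGGAAtggaagaactga
*Cd300a*, chr11:114890014-114890040, plus strand: aggctgccattcTTCCCAcaaggaaag

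The window of *Il2ra*, the member with the largest difference, held none of the 4 sets of letters, as did those of *Fcgr2b* and *Cd72*. It is shown whole, chr2:11642542-11642791 on the plus strand, and no GENCODE exon lies in it. It ends just before the GENCODE start of the gene (11642807), and the RefSeq sequence that follows it was matched whole in 0 GENCODE transcripts. The windows of *Cd22* and *Fcgr2b* lie within the genes as GENCODE draws them and hold 102 and 203 exonic bases. The window of the second start of *Ptpn22* also lies within its gene and holds 0 exonic bases.
*Il2ra*: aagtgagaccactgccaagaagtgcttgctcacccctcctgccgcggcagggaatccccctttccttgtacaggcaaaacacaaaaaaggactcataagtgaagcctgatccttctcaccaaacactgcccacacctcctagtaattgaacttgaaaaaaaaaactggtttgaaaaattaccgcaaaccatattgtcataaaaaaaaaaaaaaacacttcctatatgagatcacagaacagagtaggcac

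*Cd22* (ENSMUSG00000030577, chromosome 7 of GRCm38, 30865402 to 30880342, minus strand) encodes a sialic acid-binding lectin that sits with the B cell receptor and recruits SHP-1. Its rlog values were 10.76, 10.78 and 10.87 in control cells and 9.79, 9.65 and 9.68 in treated cells. Every treated sample was below every control sample, with a gap of 0.97 between the groups. The log2 difference was −1.10 (standard error 0.058, 95% interval −1.24 to −0.97, adjusted p = 3.5e-06, limma), and *Cd22* ranked number 173 by size of the fall among the 11536 genes.

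*Fcgr2b* (ENSMUSG00000026656, chromosome 1, 170958617 to 170976547, minus strand) encodes the inhibitory Fc receptor for IgG, which recruits SHIP1. It had rlog values of 9.58, 9.49 and 9.48 in control cells and 10.47, 10.48 and 10.38 in treated cells. The groups were separated by 0.81, more than the range within either group. *Fcgr2b* rose by 0.93 (standard error 0.055, 95% interval 0.80 to 1.06, adjusted p = 6.4e-06, limma). The activating receptor gene *Fcgr3*, looked up after the values of *Fcgr2b* were known, is a close relative in sequence. Its rlog values went from between 4.56 and 4.92 to between 5.89 and 6.27, a log2 difference of 1.35 (adjusted p = 1.3e-04, limma), and how reads were divided between both genes cannot be seen in these values.

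*Pecam1* (ENSMUSG00000020717, chromosome 11, 106654217 to 106750628, minus strand) encodes CD31, an adhesion receptor of leukocytes, platelets and endothelium with ITIMs in its tail. Its rlog values were 10.54, 10.53 and 10.46 without and 11.77, 11.78 and 11.61 with LY2090314. The treated samples lay above the controls by at least 1.06, and column 15 was the lowest of the 3. The rise was 1.20 (standard error 0.059, 95% interval 1.07 to 1.34, adjusted p = 2.4e-06, limma). None of the 8 endothelial and platelet markers examined, which include *Cdh5*, *Kdr*, *Pf4* and *Itga2b*, reached the level limit. *Pf4* and *Ppbp* were listed at 0 in every sample. *Gp9* came nearest to the limit, with values of at most 2.52 in control and 2.38 in treated cells.

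*Cd72* (ENSMUSG00000028459, chromosome 4, 43446462 to 43454628, minus strand) encodes a C-type lectin-like receptor of B cells that binds semaphorin 4D and recruits SHP-1. Its values were 10.34, 10.33 and 10.44 in control and 10.66, 10.63 and 10.51 in treated cells. The highest control and the lowest treated sample were 0.063 apart. The log2 difference of 0.23 (standard error 0.060, 95% interval 0.089 to 0.37) had an adjusted p of 0.014 in limma. This rose above 0.05 without control column 2 (0.060), without column 14A (0.055) or without column 14B (0.053). *Cd72* shares 1423 exonic bases with *Tesk1* on the other strand. *Tesk1* had mean rlog values of 9.30 and 9.28 without and with LY2090314, and whether counting used the strand is not given in the sources used here.

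*Lair1* (ENSMUSG00000055541, chromosome 7, 4003402 to 4063204, minus strand), an ITIM receptor for collagen, was close to the level limit. It had rlog values of 4.05, 4.24 and 3.85 in control cells and 3.64, 3.84 and 3.62 in treated cells. The lowest control and the highest treated sample were 0.0049 apart, so the groups barely separate. The log2 difference of −0.35 (standard error 0.12, 95% interval −0.62 to −0.072) had an adjusted p of 0.041 (limma). The adjusted p was 0.11 when no level limit was set, and between 0.092 and 0.13 without control column 1, control column 2, column 14A or column 15. *Cd300a* (ENSMUSG00000034652, chromosome 11, 114890041 to 114904654, plus strand), a phospholipid-binding ITIM receptor, lay between −0.58 and −0.52 in all 6 samples. At rlog values this low the shrinkage leaves little room for a difference, and none was detectable.

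The phosphatase genes *Ptpn6* and *Inpp5d* had log2 differences smaller in size than the median of 0.24 over all genes tested. That of the phosphatase gene *Ptpn22* was larger. *Ptpn6* (ENSMUSG00000004266, chromosome 6, 124720707 to 124738714, minus strand) had values of 11.39, 11.46 and 11.55 in control and 11.67, 11.66 and 11.63 in treated cells. The treated samples lay closer together (SD 0.023) than the controls (SD 0.077) and above all of them. The difference of 0.19 (standard error 0.052, 95% interval 0.066 to 0.31, adjusted p = 0.019, limma) is a 1.14-fold level. It missed the threshold without control column 1 or 2 or column 14A or 14B, with adjusted p-values between 0.060 and 0.068.

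*Inpp5d* (ENSMUSG00000026288, chromosome 1, 87620312 to 87720507, plus strand) was, unlike the other phosphatases, lower in treated cells, at 13.35, 13.31 and 13.42 against 13.51, 13.53 and 13.53. The difference of −0.16 (standard error 0.052, 95% interval −0.28 to −0.041, adjusted p = 0.033, limma) is a 1.12-fold lower level. Leaving out any sample but column 15 brought the adjusted p above the threshold, to between 0.073 and 0.14. *Ptpn22* (ENSMUSG00000027843, chromosome 3, 103859795 to 103912247, plus strand) encodes a phosphatase of lymphocytes that acts on Src and Syk family kinases and binds the kinase Csk. It had values of 7.54, 7.44 and 7.55 in control and 7.87, 7.92 and 7.92 in treated cells, with 0.32 between the groups. It rose by 0.39 (standard error 0.073, 95% interval 0.22 to 0.56, adjusted p = 0.0030, limma), and its adjusted p stayed at 0.016 or below with each sample left out.

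*Il2ra* (ENSMUSG00000026770, chromosome 2, 11642807 to 11693193, plus strand) had the largest difference of the 10. Its rlog values were 9.14, 8.99 and 9.04 in control cells and 11.83, 11.88 and 11.74 in treated cells. The groups were 2.60 apart, with an SD of 0.075 within the controls and 0.071 within the treated samples. *Il2ra* rose by 2.75 (standard error 0.060, 95% interval 2.62 to 2.89, adjusted p = 4.0e-08, limma), number 56 by size of the rise among the 11536 genes. On the linear scale this is a 6.75-fold level, with a 95% interval from 6.13 to 7.43.

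**Figure D2:**
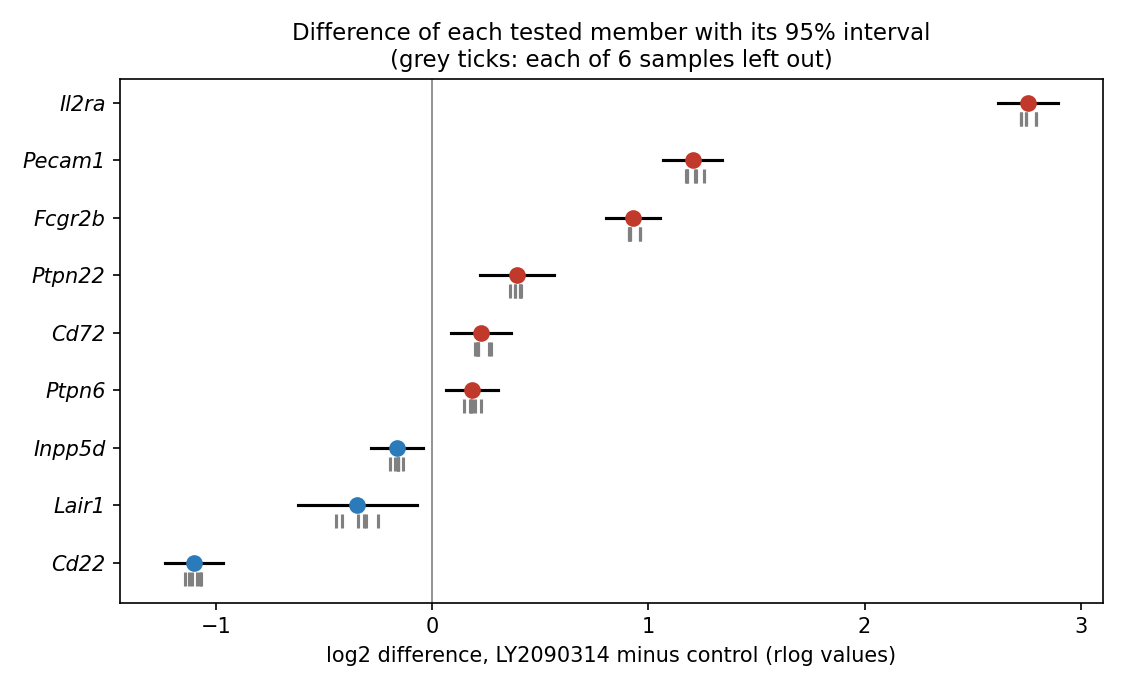
The log2 difference between treated and control cells (x axis, LY2090314 minus control) for the 9 tested members, with the 95% interval of limma as a black line and the difference with each of the 6 samples left out as grey ticks. *Il2ra*, *Pecam1* and *Fcgr2b* stand to the right and *Cd22* to the left, whereas the intervals of *Cd72*, *Ptpn6*, *Inpp5d* and *Lair1* end within 0.1 of 0.

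The 9 tested members differed in how far they depended on single samples. *Cd22*, *Fcgr2b*, *Pecam1*, *Ptpn22* and *Il2ra* kept an adjusted p under 0.05 with every sample left out in turn, and *Cd72*, *Lair1*, *Ptpn6* and *Inpp5d* did not. The number of members past the threshold fell from 9 to 5 without control column 2 or without column 14A. Over all genes tested it fell from 5778 to 4734 and 4849 in these settings. The number lower in treated cells fell from 3 to 1, which left *Cd22*, without control column 1, control column 2 or column 14A. Over all genes tested the number lower fell from 2918 to 2536, 2405 and 2416 there. With columns 14A and 14B averaged and counted as 1 sample, 5 members passed, the same 5 that kept the threshold above. Of all genes tested, 4936 passed in that setting. Columns 14A and 14B were closer to each other than either was to column 15 for 6 of the 9 members. Over all genes tested, the SD of the difference between 14A and 14B was 0.186, against 0.253 for either with column 15 and between 0.185 and 0.239 for pairs of control columns. For 6 of the 9 members, column 15 lay nearer to the control mean than both, as it did for 43.5% of all genes tested. Standard deviations of the 9 members ranged from 0.016 to 0.20 in control and from 0.023 to 0.13 in treated cells, around the medians of 0.082 and 0.094 over all genes tested.

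The genes whose centred values lay nearest to those of *Il2ra* across the 6 samples were *Zc3h12d*, *Dgka* and *Tmem108*, with root mean square distances of 0.047, 0.062 and 0.082 on the log2 scale. *Zc3h12d* and *Dgka* rose by 2.74 and 2.75. Nearest to *Cd22* were *Tcam1*, *Stk10* and *Samd1*, at distances of 0.034, 0.043 and 0.048, and with log2 differences of −1.15, −1.14 and −1.09. With 2 groups of 3 samples this likeness is mostly a likeness in size of the difference.

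Other inhibitory receptors were examined from a list of 25 genes, of which 23 were in the table and 9 reached the level limit. Of these 9, 6 rose, 1 fell and 2 did not pass the threshold, with a median log2 difference of 1.16 against 0.012 over all genes tested. The share that passed was 77.8%, against 50.1% of all genes tested. *Ctla4*, the receptor for CD80 and CD86, rose most, from between 6.11 and 6.28 to 8.82, 8.84 and 7.71 (log2 difference 2.26, adjusted p = 3.5e-04, limma). Column 15 was more than 1 log2 unit below both other treated samples, and the rise was 2.63 without it. *Cd5*, a scavenger-type receptor that dampens antigen receptor signals, rose by 1.70 and *Vsir*, which encodes VISTA, by 1.39. The remaining genes that rose, named after their values were seen, were *Fcrl1* (1.33), *Btla* (1.16) and *Siglecg* (1.08). *Sirpa*, the receptor for CD47, fell by 1.91, from between 6.75 and 6.91 to between 4.74 and 5.27. *Ceacam1* and *Milr1* had log2 differences of 0.040 and −0.065, with adjusted p-values (limma) of 0.70 and 0.58.

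**Figure D3:**
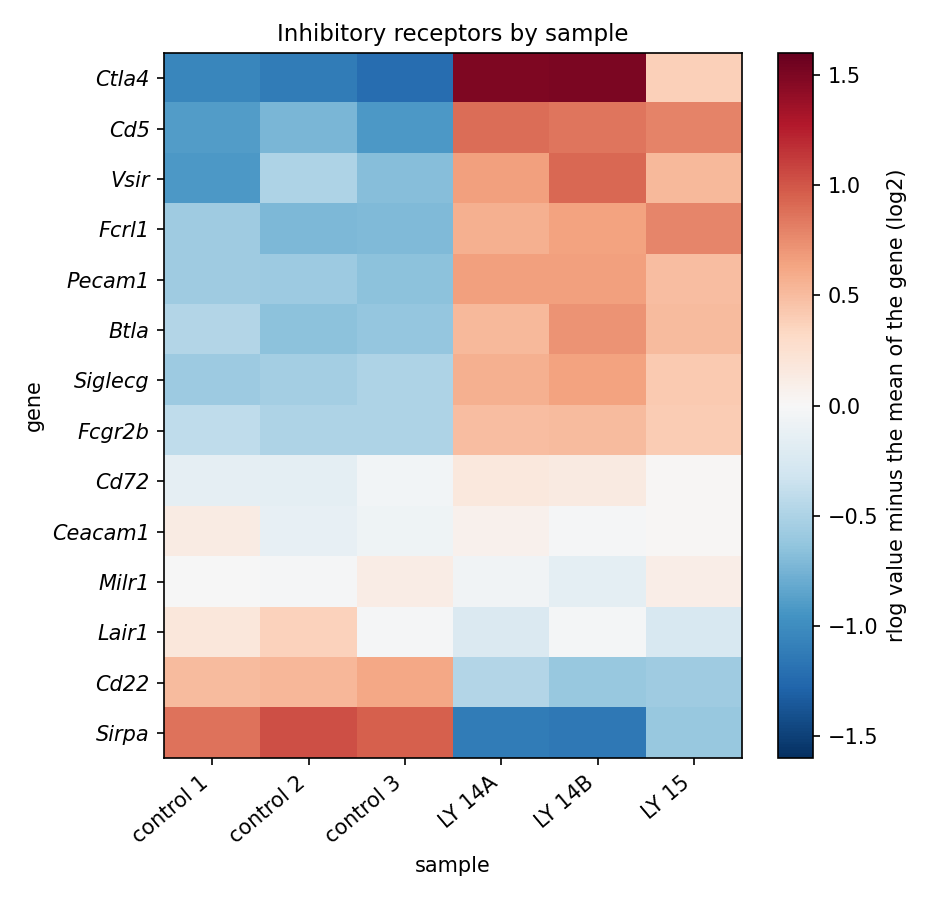
The rlog value of each tested inhibitory receptor gene minus the mean of that gene over the 6 samples (colour, log2 units, red higher and blue lower), for 5 of the members and 9 other receptors in rows and the 6 samples in columns. *Ctla4*, *Cd5* and *Vsir* head the rows that were higher in treated cells, *Cd22* and *Sirpa* close the rows that were lower, and column 15 is paler than columns 14A and 14B for *Ctla4* and *Sirpa*.

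*Cd22* and *Siglecg* encode sialic acid-binding lectins of B cells that both recruit SHP-1, and they moved in opposite directions. Within each control sample the rlog value of *Cd22* minus that of *Siglecg* was between 2.36 and 2.40, and within each treated sample it was between 0.038 and 0.29. This gap is no comparison of their levels, since transcript length enters it, but its change of −2.19 is free of length. The same gap between *Inpp5d* and *Inppl1*, which encodes the related inositol phosphatase SHIP2, widened by 0.76. That between *Ptpn6* and *Ptpn11*, which encodes the related tyrosine phosphatase SHP-2, widened by 0.40. These 3 pairs were chosen after the values of the genes were seen, and each change had an exact permutation p of 0.10 (two-sided), below which 3 samples against 3 cannot go.

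Among 10 genes for ligands of these receptors or for enzymes that make the ligands, 8 were tested, 2 rose and 2 fell (median 0.12). Thus 50.0% passed, beside 50.1% of all genes tested. *St6gal1*, the sialyltransferase that makes the α2,6-linked sialic acid bound by CD22, fell by 0.50, from between 12.65 and 12.68 to between 12.12 and 12.22 (adjusted p = 7.9e-05, limma). *Cd38*, which encodes a binding partner of CD31, fell by 0.73, *Cd48* rose by 0.58, and *Cd47*, the ligand of SIRPα, rose by 0.29. *Sema4d*, the ligand of CD72, had a log2 difference of 0.088 and an adjusted p of 0.22 (limma).

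Of 20 other tyrosine phosphatase genes, 17 were tested, with 5 higher, 6 lower and a median of −0.022. Thus 64.7% passed, beside 50.1% of all genes tested. *Ptprc*, which encodes CD45, the phosphatase that activates Src family kinases, rose by 0.86 from between 12.49 and 12.58 to between 13.34 and 13.46. *Ptpre* rose by 1.43 and *Ptprj*, the gene of CD148, by 0.59. *Ptprs*, *Ptpn18* and *Ptpn21* fell by 0.86, 0.75 and 0.49. Without control column 1, 7 in place of 11 of this list passed the threshold. Of 13 other inositol phosphatase genes, 12 were tested and 8 did not pass (33.3% passed), with a median of −0.045. *Synj2* and *Inppl1* fell by 1.12 and 0.92, and *Inpp4a* rose by 0.88. *Inpp5e* had a log2 difference of 0.31 (adjusted p = 0.017, limma), and its adjusted p was between 0.055 and 0.065 without control column 1, column 14A or column 14B.

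Among 18 kinases and adaptors of inhibitory signalling, all 18 were tested, with 6 higher and 6 lower and a median of 0.10. Thus 66.7% passed, beside 50.1% of all genes tested. *Blk*, a Src family kinase of B cells, fell by 1.02, *Ubash3b*, the gene of the phosphatase STS-1, by 0.97, and *Csk*, which inhibits Src family kinases and binds PTPN22, by 0.45. *Dok3*, an adaptor that recruits SHIP1, rose by 0.83, *Lax1* by 0.66 and *Cblb* by 0.58. *Lyn*, the kinase that phosphorylates ITIMs in B cells, had a log2 difference of −0.14 and did not pass (adjusted p = 0.097, limma).

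Of the chains that pair with CD25 in the interleukin-2 receptor, 1 could be tested and did not pass. *Il2rg*, the shared γ-chain, had a log2 difference of 0.065 (95% interval −0.063 to 0.19, adjusted p = 0.36, limma), and *Il2rb* was not tested, since it lay below the level limit, between 0.75 and 0.81 in all 6 samples. In the list of 12 genes of this receptor family and of STAT5 signalling, 11 were tested, 4 rose and 4 fell, with a median of 0.047. Thus 72.7% passed, beside 50.1% of all genes tested. *Socs1* and *Socs2* rose by 1.48 and 0.49, and *Socs3* and *Cish* fell by 0.57 and 0.38. *Il15ra* had a log2 difference of 0.69 (adjusted p = 0.017, limma), and its adjusted p was 0.059 without control column 3 and 0.054 without column 14A. *Jak3* had a log2 difference of −0.18 (adjusted p = 0.044, limma), and its adjusted p was between 0.10 and 0.13 without control column 2 or 3 or column 14A or 14B.

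**Figure D4:**
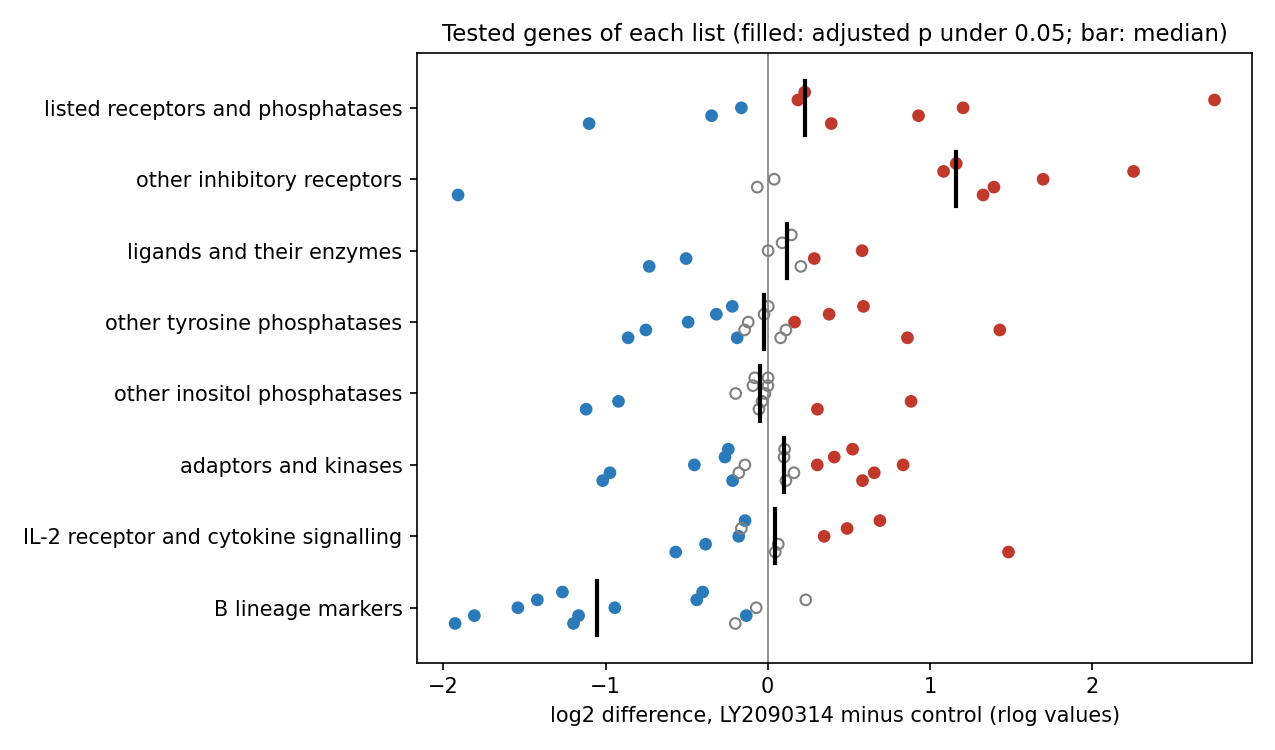
The log2 difference between treated and control cells (x axis) for every tested gene of 8 lists, 1 list per line. Filled points had an adjusted p under 0.05 (red higher, blue lower), open points did not, and the black bar is the median of the list, which is 1.16 for other inhibitory receptors, −1.05 for B lineage markers and between −0.045 and 0.23 for the other lists.

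The labelled pre-B cell type was checked against 15 B lineage markers, of which 14 were tested and *Ms4a1*, the gene of the mature B cell marker CD20, lay below the level limit. *Cd79a*, *Ebf1*, *Igll1* and *Ighm* had rlog values of at least 11.59 in every sample, though *Ebf1*, *Igll1* and *Ighm* fell by 0.40, 1.42 and 1.20. *Rag2* of the same list lay between 6.29 and 6.50 in control and between 4.48 and 4.68 in treated cells. Of the 14, 11 fell (78.6%), against 25.3% of all genes tested, with a median of −1.05. *Rag1* fell by 1.93, *Rag2* fell by 1.81 and *Pax5* fell by 1.54. *Cd79a*, *Vpreb3* and *Cd24a* did not pass, and of these *Cd79a* was the only higher one, by 0.23 (adjusted p = 0.053, limma). Of 12 myeloid markers 3 were tested, with *Ly6g* higher by 2.96 and *Lyz2* by 0.53, and *Mpo*, *Elane*, *Adgre1*, *S100a8* and *S100a9* were listed at 0 in every sample. *Cd68*, also tested, had a log2 difference of 0.017 (adjusted p = 0.89, limma). *Csf1r* and *Itgam*, below the level limit, had log2 differences of 0.068 and 0.081. Of 9 T and NK cell markers only *Klrd1* was tested, and it rose by 1.21. The *Cd3e* and *Cd3g* values were at −2.28 throughout, and *Klrb1c*, below the level limit, had a log2 difference of −0.22. Of 8 erythroid and stromal markers only *Hbb-bt* was tested, and it fell by 0.44. The part of these marker changes in the differences of the receptors was not tested. As a check of the treatment, *Nkd1* and *Axin2*, feedback inhibitors induced by β-catenin, were higher in treated cells by 5.44 and 1.67.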

How the data were processed

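The authors quantified paired-end reads of stranded polyadenylated libraries with Salmon and aligned them with STAR on GRCm38 (GENCODE vM24), used DESeq2 1.30.1 and deposited 1 table of log2 (rlog) values. Options of the rlog step are not given in the sources used here. The table gives no counts, so sequencing depth is unknown and no interval for counting error can be given. Columns were matched to groups by name, and 6 columns of per-sample values were not used. Symbols were matched to 41157 of 41444 identifiers, and positions come from GENCODE vM21. Genes with a mean of at least 3 were fitted with limma 3.58.1 in R 4.3.3 (trend option of eBayes on). Adjusted p-values are by Benjamini and Hochberg over 11536 genes, with a threshold of 0.05. In simulated data of this comparison over 11536 genes, 80.5% of 200 changed genes were recovered and 5.29% of calls were unchanged genes. The simulated samples were independent, and far fewer genes were changed than passed in the real comparison. The smallest planted difference exceeded in size those of *Cd72*, *Lair1*, *Ptpn6*, *Inpp5d* and *Ptpn22*. These shares are therefore not the recovery or error rate of the calls above.

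The members and the gene lists were chosen with earlier results of these data known. The genes named are the 10 members, up to 3 genes per list and direction with the largest differences past the threshold, the 3 genes nearest to the members with the largest rise and fall, *Axin2* and *Nkd1*, and single genes said to be chosen later. Further genes of the lists are named by their role as ligand, partner, kinase or marker of a member, after their values were seen. The alternatives were a fit without the trend, no level limit, a limit of 5, median centring, quantile normalization, leaving out each sample, columns 14A and 14B as 1 sample, a threshold of 0.01 and a further limit of 1 on the log2 difference. A planned search of the proteins for ITIMs was not made, since no protein sequences were used here. Results for some genes of the lists are not reported here.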

Additional observations from a re-analysis of the deposited data

How the results depend on the processing

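The log2 differences of *Cd22*, *Pecam1* and *Il2ra* kept their direction and stayed past the threshold under all 14 alternatives, and no difference of a tested member changed sign under any alternative that gave a value. With a further limit of 1 on the log2 difference, the number of genes changed was 693 (478 higher and 215 lower) in place of 5778 (2860 and 2918), of members 3 (2 higher and 1 lower) in place of 9, and of genes on the other lists 20 in place of 61. The members lost there were *Fcgr2b* (0.93), *Ptpn22* (0.39), *Lair1* (−0.35), *Cd72* (0.23), *Ptpn6* (0.19) and *Inpp5d* (−0.16). With a threshold of 0.01 the last 4 of these were lost at the same differences, which left 5 members, 1 of them lower, beside 4021 genes. Counting columns 14A and 14B as 1 sample also left 5 members, 1 of them lower, beside 4936 genes. The same 4 missed the threshold, with differences of 0.20 for *Cd72*, −0.37 for *Lair1*, 0.18 for *Ptpn6* and −0.15 for *Inpp5d*. Without a level limit *Lair1* missed it (−0.35), and with a limit of 5 *Lair1*, *Hbb-bt*, *Klrd1* and *Ly6g* gave no value.

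With each sample left out in turn, the differences ranged from 0.20 to 0.27 for *Cd72*, from −0.45 to −0.25 for *Lair1*, from 0.15 to 0.23 for *Ptpn6* and from −0.19 to −0.14 for *Inpp5d*. The number of members past the threshold ranged from 5 to 8, of those higher from 4 to 6 and of those lower from 1 to 2. That of all genes tested ranged from 4734 to 6228. The 39 genes named by rule from the other lists or as a check of the treatment (*Axin2* and *Nkd1*) were refitted too. Of these, 3 (*Il15ra*, *Inpp5e* and *Jak3*) lost the threshold in a setting other than the stricter thresholds, while 0 changed sign. The genes nearest to *Il2ra* and *Cd22*, *Fcgr3* and list genes named after their values were seen were not refitted one by one. The median difference of all tested genes was 0.012, −0.015 after median centring and −0.037 after quantile normalization. No paired analysis was possible because no replicate number of the titles can be found in the names of the columns. What sequencing depth limits was not assessed, since no counts were at hand.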
